A study of Mus musculus with 8 samples.

Results

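Sarcolipin, the SERCA calcium pumps and the genes that store, bind and release Ca2+ in skeletal muscle fibres were followed here in Klotho-deficient mice. The group holds 10 genes, *Sln*, *Atp2a1*, *Atp2a2*, *Casq1*, *Casq2*, *Pvalb*, *Ryr1*, *Stac3*, *Jph1* and *Jph2*, of the 12551 genes in the deposited count table. They were matched by gene symbol, and all 10 were present and stayed in every fit with the default filter on low counts. RNA was sequenced from whole tibialis anterior (TA) muscle of 4 wild-type mice (Klotho wt/wt, WT) and 4 mice homozygous for a null allele of Klotho in every tissue (Klotho null/null, KL-/-). All 8 mice were male and 7 weeks old, were bred from heterozygous parents on a mixed background, and were fed chow, with no treatment named. Each library was built from 100 ng of RNA of 1 mouse. Klotho itself (*Kl*) is not among the 12551 genes, so these counts cannot show the genotypes, which are taken from the labels. The authors genotyped their mice by PCR and could not detect *Kl* mRNA in KL-/- muscle by qRT-PCR. Because the 10 genes were chosen with the WT against KL-/- comparison of these libraries known, their own differences are described without a p-value.

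A muscle fibre contracts when Ca2+ leaves the sarcoplasmic reticulum and relaxes when SERCA pumps return it. Release starts in the triad, where the voltage sensor in the transverse tubule opens the ryanodine receptor across a narrow gap, and calsequestrin holds the store inside the reticulum. Sarcolipin is a short membrane peptide that binds SERCA and lets ATP be split with less Ca2+ moved. Fast fibres carry SERCA1 and the soluble buffer parvalbumin, while slow and cardiac muscle carry SERCA2. Calsequestrin 1 is found in skeletal muscle fibres, and calsequestrin 2 in heart and slow fibres.

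Counts on genes summed to between 20860262 and 29273758 per library, and 3 counts corresponded to 0.105 to 0.143 CPM (counts scaled by the size of the library), so the members were measured above that level in every library. The defining fast fibre marker *Myh4* reached 35287 ± 2124 CPM in WT muscle (SD, n = 4), and KL-/- muscle reached 48545 ± 9565 CPM, while 5 of the 6 cardiac markers searched (*Myl7*, *Nppa*, *Nppb*, *Tnni3* and *Mybpc3*) are not among the 12551 genes. The KL-/- replicate 3 library has a batch date of its own, which cannot be told apart from that mouse. In bulk muscle, fewer cells of a type and less RNA per cell cannot be told apart either. The scaling matters: trimmed mean (TMM) factors were 1.02 to 1.05 in WT and 0.950 to 0.980 in KL-/- libraries, and library totals in their place moved the median over all genes from −0.016 to −0.13 on the log2 scale. Differences between genotypes below are log2 fold changes of KL-/- over WT ± standard error, and levels are means ± SD of TMM-normalized CPM (n = 4 mice).

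With edgeR's quasi-likelihood test, 2 of the 10 genes, *Sln* and *Ryr1*, had a false discovery rate (FDR) under 0.05 and were higher in KL-/- muscle, where 14.0% of all 12551 genes passed in either direction, 7.35% in this one and 6.67% in the other. The libraries of the genotypes did not overlap in 3 of the 10, *Sln*, *Atp2a1* and *Ryr1*, with KL-/- above in each, against 19.7% of all genes in either direction, 10.2% with KL-/- above and 9.47% with KL-/- below. Which members passed moved with the settings, from 1 to 4 of them. *Stac3* passed as lower in KL-/- muscle with library totals and without KL-/- replicate 2. *Atp2a1* passed with DESeq2, the likelihood ratio test and the edgeR version 3 method, and *Jph1* with DESeq2. *Ryr1* did not pass with library totals or with the replicate number as a block. Nor did *Ryr1* pass without WT replicate 2, 3 or 4, or without KL-/- replicate 1, 3 or 4. As the members were picked from this comparison, nothing is read from these counts. The median log2 fold change of the 10 was 0.18, with 6 positive and 4 negative, and that of all genes was −0.016.

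**Figure D1:**
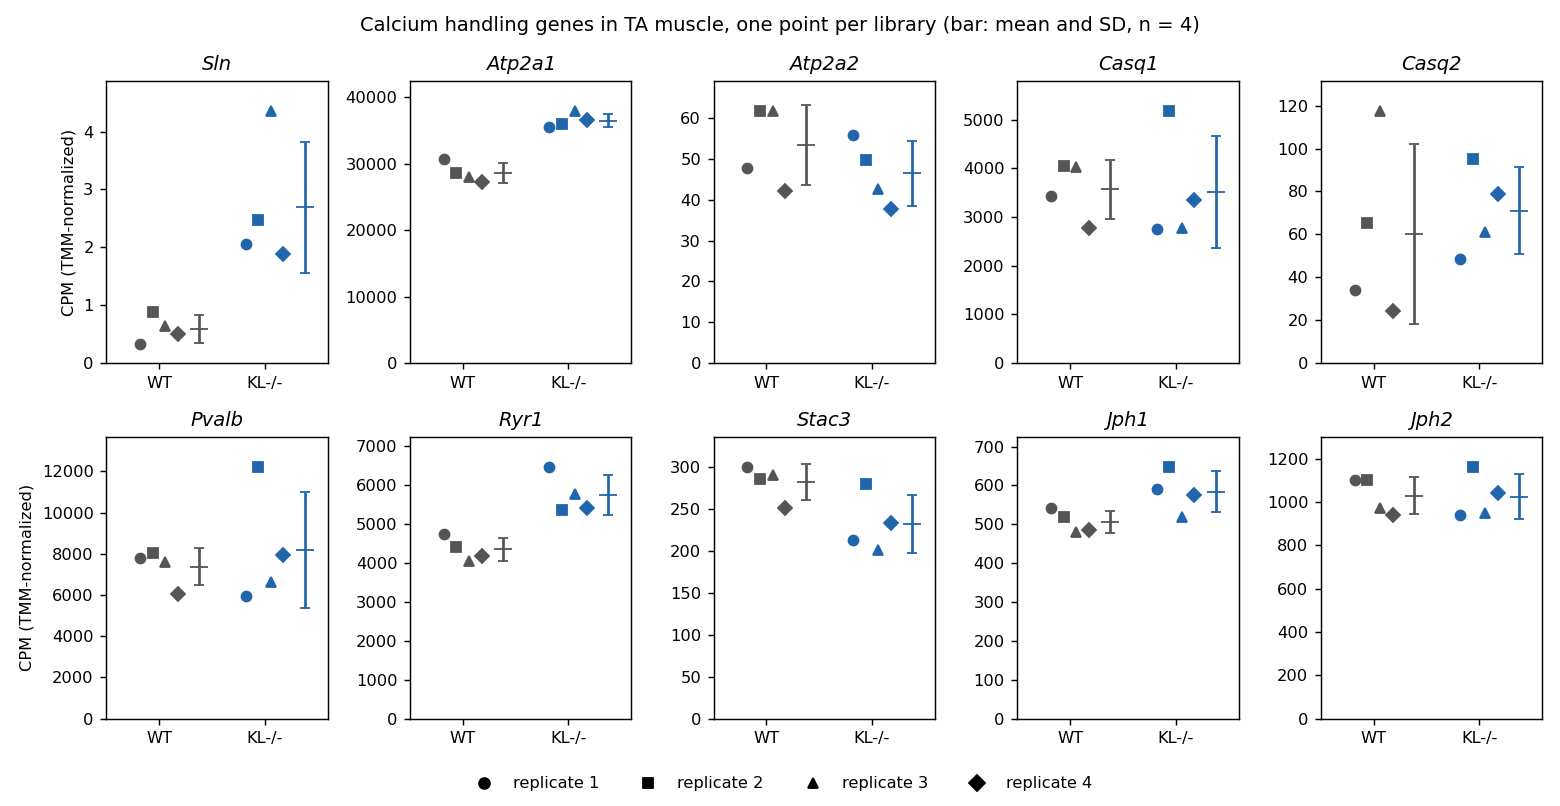
CPM of the 10 genes in each of the 8 TA libraries, on axes that start at 0, with a symbol for each replicate number and a bar for the mean and SD of 4 mice. *Sln*, *Atp2a1* and *Ryr1* are the panels in which every KL-/- point lies above every WT point, while in *Casq1* and *Pvalb* KL-/- replicate 2 alone reaches 5174 and 12224 CPM.

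*Sln* was the gene with the largest difference and the lowest level. It lies on chromosome 9 (mm10, chr9:53850251-53853849, plus strand), and its coding sequence fits in 1 exon. The coding sequences of *Sln* and of 2 other SERCA-binding peptides, phospholamban (*Pln*) and myoregulin (*Mrln*), are shown 5′ to 3′ from the GENCODE transcripts of GRCm38 (mm10), to let the short reading frames be compared, with the start and stop codons in capitals.
Sln (96 bases, chr9:53853473-53853568, plus strand): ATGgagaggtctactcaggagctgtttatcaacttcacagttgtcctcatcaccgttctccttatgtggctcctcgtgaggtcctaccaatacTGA
Pln (159 bases, chr10:53343864-53344022, plus strand): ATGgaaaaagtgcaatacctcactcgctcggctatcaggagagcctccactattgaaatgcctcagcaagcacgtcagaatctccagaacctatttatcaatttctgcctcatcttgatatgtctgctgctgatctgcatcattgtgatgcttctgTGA
Mrln (141 bases, chr10:70219496-70219636, plus strand): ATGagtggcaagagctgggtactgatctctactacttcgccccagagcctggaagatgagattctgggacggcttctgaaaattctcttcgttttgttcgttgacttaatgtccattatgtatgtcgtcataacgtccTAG

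In WT replicates 1 to 4, *Sln* had 8, 19, 17 and 14 counts, or 0.327, 0.879, 0.648 and 0.502 CPM. In KL-/- replicates 1 to 4 it had 59, 52, 105 and 50 counts, or 2.06, 2.48, 4.35 and 1.88 CPM. Every KL-/- muscle was above every WT muscle, and the highest was KL-/- replicate 3, which has its own batch date. WT mice averaged 0.589 ± 0.234 CPM and KL-/- mice 2.69 ± 1.13 CPM, and the log2 fold change was 2.20 ± 0.37, or 4.58-fold. Without KL-/- replicate 3, which leaves libraries of 1 batch date, the log2 fold change was 1.86, and without WT replicate 2 it was 2.42.

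The related peptides were at other levels. *Pln*, the SERCA inhibitor of heart and slow muscle, was at 1.27, 1.62, 1.87 and 2.22 CPM in WT and at 2.51, 2.67, 2.32 and 2.86 CPM in KL-/- replicates 1 to 4, so its genotypes did not overlap either. Its log2 fold change was 0.56 ± 0.19 and did not pass the test (edgeR quasi-likelihood FDR = 0.0729). *Mrln*, the SERCA inhibitor of skeletal muscle fibres, averaged 28.0 ± 4.00 CPM in the WT and 22.5 ± 5.14 CPM in the KL-/- mice, which overlapped, and its log2 fold change was −0.32 ± 0.16 (FDR = 0.195). Exons of *Pln* share 1644 bases with *Gm47644* and 141 bases with *Cep85l*, both on the opposite strand, and none of *Sln* or *Mrln* overlap another gene in GENCODE.

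Among the 11986 candidate genes, those averaging 0 or more in log2 CPM, the 5 whose library-to-library pattern was nearest to that of *Sln* were found by the root mean square difference of centred log2 CPM over the 8 libraries. They were *Slc4a8*, a bicarbonate transporter gene, at a distance of 0.305, *Lonrf3* at 0.445, *Gnmt*, a glycine methyltransferase gene, at 0.462, *Myl10*, a myosin regulatory light chain gene, at 0.484 and *Abca4*, a lipid transporter gene, at 0.493. The means of *Slc4a8* were 2.02 ± 0.704 CPM for WT and 7.64 ± 1.19 CPM for KL-/- mice, and those of *Myl10* were 3.63 ± 1.10 and 8.49 ± 0.902 CPM. The 5 are given without a test, having been selected by this pattern.

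Slow and cardiac muscle genes stood beside *Sln* as follows. Of 7 slow fibre markers, 3 rose in KL-/- muscle by the same test and none fell. The 3 were *Tnnc1* (log2 fold change 1.18 ± 0.32, FDR = 0.0399), *Tnni1* (1.05 ± 0.29, FDR = 0.0402) and *Tnnt1* (0.92 ± 0.23, FDR = 0.0319). Mean CPM in WT and KL-/- muscle was 2.19 and 4.87 for *Tnnc1*, 2.15 and 4.41 for *Tnni1* and 4.51 and 8.52 for *Tnnt1*. The genotypes overlapped for *Tnni1*. *Myl3*, the most abundant of the 7, averaged 90.4 ± 31.8 CPM in the WT and 70.8 ± 20.2 CPM in the KL-/- mice (−0.35 ± 0.27, FDR = 0.386), and *Myh7*, the slow myosin heavy chain, ranged from 1.84 to 10.03 CPM in WT and from 2.75 to 40.87 CPM across KL-/- mice. The sum of the 7 slow fibre markers was 107 to 187 CPM in WT and 113 to 211 CPM in KL-/- libraries, and it was 159 CPM in KL-/- replicate 3, where *Sln* was highest. *Myh6*, the cardiac alpha myosin heavy chain, rose from 3.57 ± 0.655 to 8.21 ± 0.827 CPM (log2 fold change 1.20 ± 0.15, FDR = 0.00289). The part of these genes in the *Sln* difference was not tested.

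*Atp2a1* and *Atp2a2* encode the SERCA pumps themselves. *Atp2a1*, the fast fibre pump SERCA1 (chr7:126445860-126463073, minus strand), was at 30777, 28616, 28019 and 27278 CPM in WT replicates 1 to 4 and at 35576, 35916, 37897 and 36630 CPM in KL-/- replicates 1 to 4. The genotypes did not overlap, and the SD within each, 1506 CPM for WT and 1027 CPM for KL-/- mice, was small beside the difference of the means, 28673 and 36505 CPM. Its share of all counts was 2.99% in WT and 3.504% in KL-/- libraries, and the log2 fold change was 0.35 ± 0.16. With library totals the value was 0.23, and it ranged from 0.33 to 0.38 when any 1 library was left out.

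*Atp2a2*, the SERCA2 pump of slow fibres, heart and other cells (chr5:122453513-122502225, minus strand), was at 47.8, 61.7, 61.6 and 42.2 CPM in WT and at 55.7, 49.7, 42.7 and 37.7 CPM in KL-/- replicates 1 to 4. Here the genotypes overlapped, with means of 53.3 ± 9.86 and 46.4 ± 7.91 CPM and a log2 fold change of −0.20 ± 0.15. Per kilobase of gene length, *Atp2a2* made up 0.112% ± 0.0217 of SERCA transcripts in WT and 0.0766% ± 0.0147 in KL-/- muscle. The shares of WT replicates 1 and 4, 0.0933% and 0.0930%, lay just below the 0.0940% of KL-/- replicate 1, so the shares overlapped as well. The ratio of *Sln* to *Atp2a2*, both per kilobase, was 0.120 ± 0.0342 in WT and 0.657 ± 0.317 in KL-/- muscle without overlap, and that of *Sln* to *Atp2a1* was 0.000137 ± 5.58e-05 and 0.000485 ± 0.000189.

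*Ryr1* encodes the Ca2+ release channel of skeletal muscle (chr7:29003340-29125151, minus strand). It was at 4742, 4409, 4049 and 4164 CPM in WT replicates 1 to 4 and at 6462, 5344, 5775 and 5405 CPM in KL-/- replicates 1 to 4. All KL-/- muscles were above all WT muscles, and KL-/- replicate 1 was the highest. The means were 4341 ± 306 and 5746 ± 514 CPM, the log2 fold change was 0.41 ± 0.11, and with library totals it was 0.29. The log2 fold change stayed between 0.35 and 0.45 with any 1 library left out. *Ryr1* and *Atp2a1* kept nearly the same ratio per kilobase, 0.0339 ± 0.00103 in WT and 0.0353 ± 0.00362 in KL-/- muscle, with overlap.

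*Stac3*, an adaptor that couples the voltage sensor to the release channel (chr10:127501717-127508815, plus strand), stood on the other side of zero. It was at 300.0, 286, 290 and 250 CPM in WT and at 212, 280, 201 and 233 CPM in KL-/- replicates 1 to 4. KL-/- replicate 2 lay within the WT range and the other KL-/- muscles lay below it. The means were 282 ± 21.6 and 232 ± 34.7 CPM, with a log2 fold change of −0.28 ± 0.11 that ran from −0.38 without KL-/- replicate 2 to −0.22 without KL-/- replicate 3. With library totals the log2 fold change was −0.40. Within a library, the ratio of *Stac3* to *Ryr1* per kilobase was 0.543, 0.557, 0.615 and 0.516 in WT and 0.282, 0.449, 0.299 and 0.370 in KL-/- replicates 1 to 4. This ratio does not depend on the scaling of libraries, its means were 0.558 ± 0.0416 and 0.350 ± 0.0762, and the genotypes did not overlap. Both genes were chosen with the comparison known and differ in opposite directions, so nothing is read from that split.

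Because *Ryr1* and *Atp2a1* were both higher in all KL-/- muscles, the 250 bases before their annotated starts are shown 5′ to 3′ from RefSeq (GRCm38.p6, mm10), with capitals for CAGCTG, the E-box that myogenic factors of the MyoD family bind.
Atp2a1 (chr7:126463074-126463323, minus strand): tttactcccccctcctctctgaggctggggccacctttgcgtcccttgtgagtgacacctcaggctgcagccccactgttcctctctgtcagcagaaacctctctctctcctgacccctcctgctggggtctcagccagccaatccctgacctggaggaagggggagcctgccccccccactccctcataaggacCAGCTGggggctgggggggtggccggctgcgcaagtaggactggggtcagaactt
Ryr1 (chr7:29125152-29125401, minus strand): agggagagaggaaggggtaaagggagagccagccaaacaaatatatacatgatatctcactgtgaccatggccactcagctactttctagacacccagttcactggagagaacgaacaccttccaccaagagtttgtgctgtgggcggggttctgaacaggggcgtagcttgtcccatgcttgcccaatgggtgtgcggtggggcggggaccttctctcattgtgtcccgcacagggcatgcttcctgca
CAGCTG, the same on both strands, occurred 55 to 50 bases before the start of *Atp2a1* and not in the *Ryr1* window. A promoter was found in the RefSeq set for 6 of the 10 genes, and *Casq1* (195 to 190 bases before the start) and *Jph2* (9 to 4 bases before one of its starts) held CAGCTG too, as did 13% of all 32851 promoters of the same length. A MEF2 motif, on either strand, lay 69 to 60 bases before the start of *Casq2* and 180 to 171 bases before one start of *Pvalb*, and 2.92% of all promoters held one. These are matches of letters in a window only.

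The junctophilins hold the transverse tubule and the reticulum together. *Jph1*, the junctophilin particular to skeletal muscle (chr1:16994940-17097889, minus strand), was at 541, 518, 479 and 486 CPM in WT and at 592, 648, 520 and 577 CPM in KL-/- replicates 1 to 4. Only KL-/- replicate 3 lay within the WT range, and its difference was 0.21 ± 0.079 on the log2 scale, or 0.090 when scaled by library totals. *Jph2*, which heart and skeletal muscle share (chr2:163336242-163397993, minus strand), was at 1101, 1104, 973 and 939 CPM in WT and at 941, 1163, 952 and 1044 CPM in KL-/- replicates 1 to 4. Its genotypes covered the same range, its log2 fold change was −0.0057 ± 0.093, and the sign of that value turned with another scaling. The *Jph2* share of junctophilin transcripts per kilobase was 69.7%, 70.7%, 69.6% and 68.6% in WT and 64.3%, 67.0%, 67.4% and 67.2% in KL-/- replicates 1 to 4. The shares did not overlap, with means of 69.6% ± 0.850 and 66.5% ± 1.48.

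**Figure D2:**
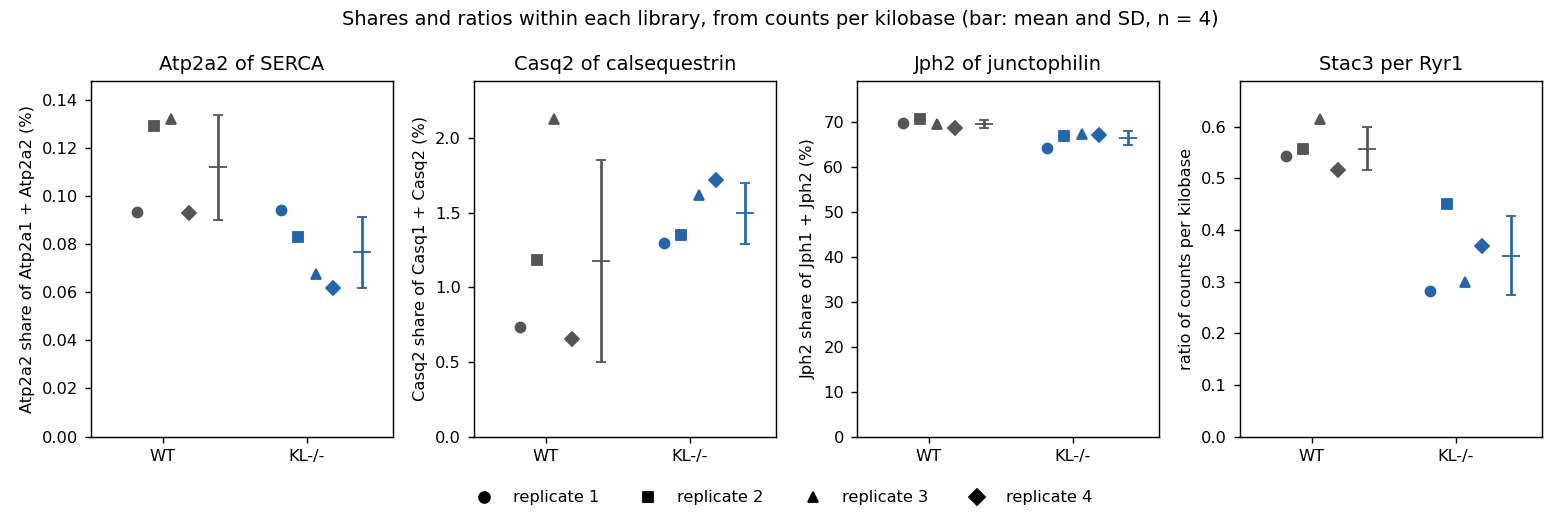
Shares and ratios of members within each of the 8 libraries, from counts per kilobase of gene length and on axes that start at 0, with a symbol for each replicate number and a bar for the mean and SD of 4 mice. The genotypes are apart for the *Jph2* share and for *Stac3* per *Ryr1*, and they overlap for the *Atp2a2* and *Casq2* shares.

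The Ca2+-binding proteins varied more between mice than between genotypes. *Casq1*, a calsequestrin of skeletal muscle fibres (chr1:172209894-172219895, minus strand), was at 3437, 4051, 4022 and 2765 CPM in WT and at 2754, 5174, 2774 and 3355 CPM in KL-/- replicates 1 to 4. *Pvalb*, the soluble Ca2+ buffer of fast fibres (chr15:78191118-78206351, minus strand), was at 7773, 8061, 7616 and 6045 CPM in WT and at 5930, 12224, 6638 and 7955 CPM in KL-/- replicates 1 to 4. In both genes KL-/- replicate 2 was the highest of all libraries and KL-/- replicate 1 the lowest, and the genotypes overlapped. The log2 fold change of *Casq1* was −0.022 ± 0.21 and went from −0.26 without KL-/- replicate 2 to 0.086 without KL-/- replicate 1. It was also positive without WT replicate 2 (0.044), WT replicate 3 (0.040) or KL-/- replicate 3 (0.076). The log2 fold change of *Pvalb* was 0.15 ± 0.22 and went from −0.10 without KL-/- replicate 2 to 0.29 without KL-/- replicate 1. Only without KL-/- replicate 2 did the *Pvalb* value turn negative. KL-/- replicate 2 also had the highest *Myh4*, 62798 CPM, and the highest sum of the 7 fast fibre markers, 131800 CPM against 104500 to 113600 CPM in the other KL-/- libraries and 87490 to 99980 CPM in WT, and the part of fast fibre RNA in these values was not tested. Of the 7 fast fibre markers, 1 passed the test, *Actn3*, the alpha-actinin of fast fibres, which rose by 0.67 ± 0.12 on the log2 scale (FDR = 0.0103).

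*Casq2*, a calsequestrin of heart and slow fibres (chr3:102086455-102146512, plus strand), was at 34.1, 65.3, 117 and 24.3 CPM in WT and at 48.7, 95.1, 61.2 and 78.9 CPM in KL-/- replicates 1 to 4. WT replicate 3 was the highest and WT replicate 4 the lowest of all libraries, so the WT range enclosed that of KL-/- muscle. The log2 fold change was 0.24 ± 0.43, and it moved between −0.028 without WT replicate 4 and 0.79 without WT replicate 3. *Casq2* made up 1.18% ± 0.678 of calsequestrin transcripts per kilobase in WT and 1.498% ± 0.204 in KL-/- muscle, with overlap. The sum of the 5 fibroblast markers was 1190, 2659, 2821 and 696 CPM in WT and 852, 1245, 362 and 567 CPM in KL-/- replicates 1 to 4. Among WT libraries it was highest and lowest in the same mice as *Casq2*. Among KL-/- libraries both were highest in replicate 2, but the sum was lowest in replicate 3 and *Casq2* in replicate 1. The part of fibroblast RNA in the *Casq2* values was not tested.

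**Figure D3:**
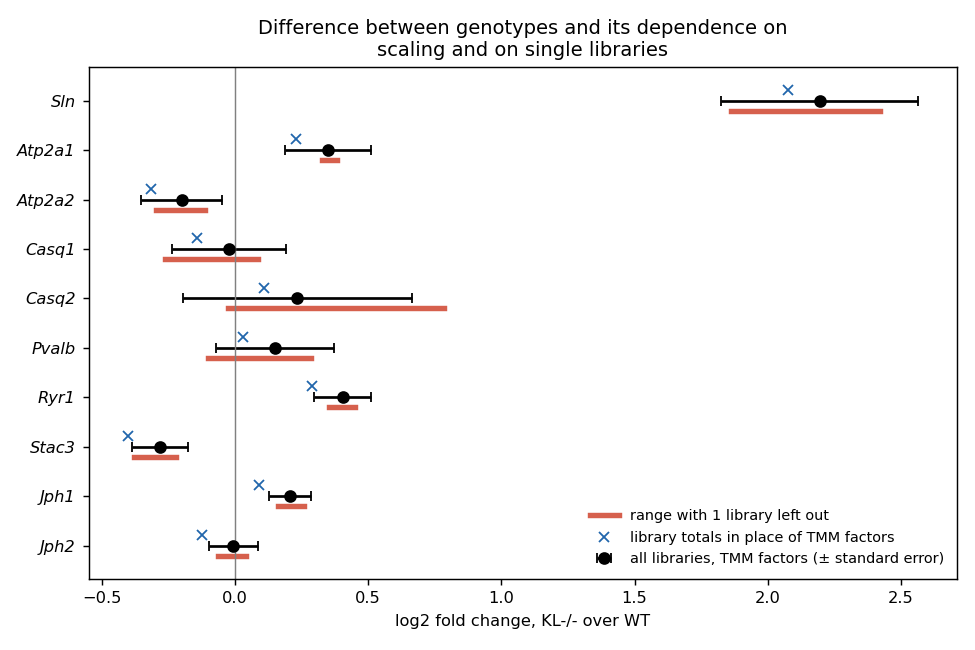
Log2 fold change of KL-/- over WT for the 10 genes, with the standard error as a black bar, the range over 8 fits that each left out 1 library as a red line, and the value with library totals as a blue cross. The red line of *Casq1*, *Casq2*, *Pvalb* and *Jph2* crosses zero, that of *Sln* runs from 1.86 to 2.42, and every cross lies to the left of its point.

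Levels are compared between genes as CPM per kilobase of the gene length in the table. In WT muscle the order was *Atp2a1* (8335 ± 438), *Pvalb* (8166 ± 1000), *Casq1* (1904 ± 323), *Ryr1* (283 ± 19.9), *Jph2* (242 ± 20.2), *Stac3* (157 ± 12.1), *Jph1* (105 ± 5.98), *Casq2* (24.0 ± 16.7), *Atp2a2* (9.32 ± 1.72) and *Sln* (1.13 ± 0.449). The WT libraries of *Atp2a1* and *Pvalb* overlapped, as did those of *Casq2* and *Atp2a2*, and the other neighbours in this order did not. The order of the means was the same in KL-/- muscle, from *Atp2a1* at 10610 ± 299 to *Atp2a2* at 8.11 ± 1.38 and *Sln* at 5.18 ± 2.18. There, *Stac3* (129 ± 19.4) and *Jph1* (122 ± 10.9) overlapped, as did *Atp2a1* and *Pvalb* and also *Atp2a2* and *Sln*. The ranges of *Casq2* and *Atp2a2* overlapped in WT muscle only, but within each library of either genotype *Casq2* lay above *Atp2a2*.

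**Figure D4:**
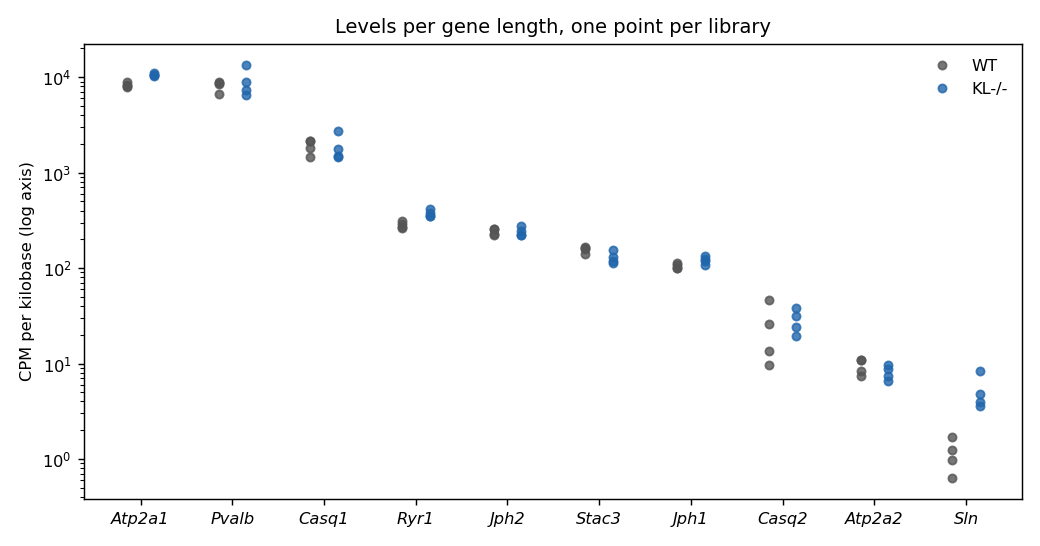
Level of each of the 10 genes as CPM per kilobase of gene length on a log axis, with 1 point per library and the genotypes side by side, ordered by the WT mean. The genes run from *Atp2a1* at 8335 down to *Sln* at 1.13 in WT muscle, and *Sln* approaches *Atp2a2* in KL-/- muscle.

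The other genes of Ca2+ handling, 96 listed by role of which 87 are in the count table, were tested in the same fit. Of the 87, 7 rose and 7 fell in KL-/- muscle (edgeR quasi-likelihood FDR under 0.05) and 73 did not pass, which is 16.1% called beside 14.0% of all genes, with a median log2 fold change of 0.034. Scaled by library totals, 4 rose and 16 fell, and without KL-/- replicate 2 the test called 26 of them, 15 higher and 11 lower.

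Among the 20 other genes of the release channel and its voltage coupling, 2 rose and 1 fell. *Trdn*, triadin, which anchors calsequestrin to the ryanodine receptor, was at 1292, 1247, 1167 and 1135 CPM in WT and at 1549, 1759, 1720 and 1642 CPM in KL-/- replicates 1 to 4, a rise of 0.46 ± 0.077 on the log2 scale without overlap (FDR = 0.00738). *Cacna2d1*, an auxiliary subunit of the voltage-gated Ca2+ channel, rose from 691 ± 36.4 to 876 ± 73.4 CPM (0.34 ± 0.077, FDR = 0.0217). The most abundant genes of this role did not pass, with log2 fold changes of 0.014 ± 0.088 for sarcalumenin (*Srl*) and 0.11 ± 0.072 for the cation channel gene *Tmem38a*.

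Triad structure genes gave 2 of 15 higher and none lower. *Mtmr14*, a phosphoinositide phosphatase gene, rose from 24.6 ± 2.83 to 34.5 ± 2.43 CPM (log2 fold change 0.49 ± 0.091, FDR = 0.0111), and *Tcap*, telethonin of the Z-disc, rose from 2486 ± 332 to 3422 ± 386 CPM (0.46 ± 0.13, FDR = 0.0399). Of the 7 other genes listed under SERCA and its regulators, only *Thbs4*, thrombospondin 4, passed, and it fell from 118 ± 8.88 to 62.5 ± 23.2 CPM (−0.92 ± 0.25, FDR = 0.0387). *Hrc*, the histidine-rich Ca2+-binding protein of the reticulum, was at 1195 ± 49.8 and 1140 ± 103 CPM (−0.068 ± 0.081), and calreticulin (*Calr*) had a log2 fold change of 0.030 ± 0.058. Thrombospondin 4 is a matrix protein of tendon, and 2 of the 5 fibroblast markers, *Dcn* (−0.94 ± 0.24, FDR = 0.0305) and *Lum* (−1.32 ± 0.38, FDR = 0.0460), fell in the same muscles. Their part in the *Thbs4* difference was not tested.

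Ca2+ entry, extrusion and mitochondrial uptake contributed 1 gene each. *Slc8a3*, a plasma membrane sodium-calcium exchanger gene, rose from 73.4 ± 12.3 to 116 ± 11.9 CPM (log2 fold change 0.66 ± 0.12, FDR = 0.00964), the only call among 6 extrusion genes, of which *Atp2b1*, a plasma membrane Ca2+ pump gene, was the most abundant (0.099 ± 0.070). *Itpr1*, an IP3 receptor gene, fell from 46.6 ± 5.23 to 29.6 ± 5.95 CPM (−0.65 ± 0.14, FDR = 0.0185), the only call among 10 genes of store-operated entry and IP3 receptors, where *Stim1*, the Ca2+ sensor of the store, stood at 0.012 ± 0.054 and *Saraf* at 0.037 ± 0.078. *Slc8b1*, the mitochondrial sodium-calcium exchanger gene, fell from 9.85 ± 0.753 to 7.15 ± 0.845 CPM (−0.46 ± 0.11, FDR = 0.0254), the only call among 11 mitochondrial genes, where the channel genes *Vdac1* and *Vdac3* stood at 0.16 ± 0.077 and 0.087 ± 0.071.

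Genes of calcineurin and CaM kinase, which read Ca2+ signals, moved in both directions, with 2 of 18 higher and 3 lower. *Rcan2*, a calcineurin regulator gene, was at 85.0, 93.8, 86.9 and 102 CPM in WT and at 51.1, 45.2, 60.1 and 43.0 CPM in KL-/- replicates 1 to 4, a log2 fold change of −0.88 ± 0.11 without overlap (FDR = 0.00273). *Ppp3ca*, a catalytic subunit of calcineurin, rose from 257 ± 17.6 to 342 ± 12.6 CPM (0.41 ± 0.064, FDR = 0.00623), and *Nfatc2*, a calcineurin-controlled transcription factor gene, fell from 16.7 ± 1.08 to 11.4 ± 1.29 CPM (−0.56 ± 0.097, FDR = 0.00847). The CaM kinase II genes split, with *Camk2b* at 0.28 ± 0.079 (FDR = 0.0432), *Camk2d* at −0.41 ± 0.11 (FDR = 0.0417) and the more abundant *Camk2a* at −0.26 ± 0.11 (FDR = 0.131). *Myoz1*, calsarcin 2 of fast fibres, which binds calcineurin at the Z-disc, was the most abundant of the role and did not pass (0.28 ± 0.090, FDR = 0.0665).

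The calls differed in how far they rested on 1 library. *Trdn*, *Mtmr14*, *Slc8a3*, *Ppp3ca*, *Rcan2* and *Nfatc2* passed in all 8 fits that each left out 1 library. *Itpr1* did not pass without KL-/- replicate 4 (FDR = 0.0509), *Cacna2d1* without WT replicate 2 (FDR = 0.0548) or 3 (FDR = 0.0542), and *Slc8b1* without WT replicate 2 (FDR = 0.0684), WT replicate 3 (FDR = 0.0739) or KL-/- replicate 4 (FDR = 0.0726). *Thbs4* passed only without KL-/- replicate 1, 2 or 4 and otherwise reached an FDR of up to 0.0945, *Camk2b* only without WT replicate 4 or KL-/- replicate 2 (otherwise up to 0.116), and *Tcap* (up to 0.109) and *Camk2d* (up to 0.109) only without KL-/- replicate 2.

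**Figure D5:**
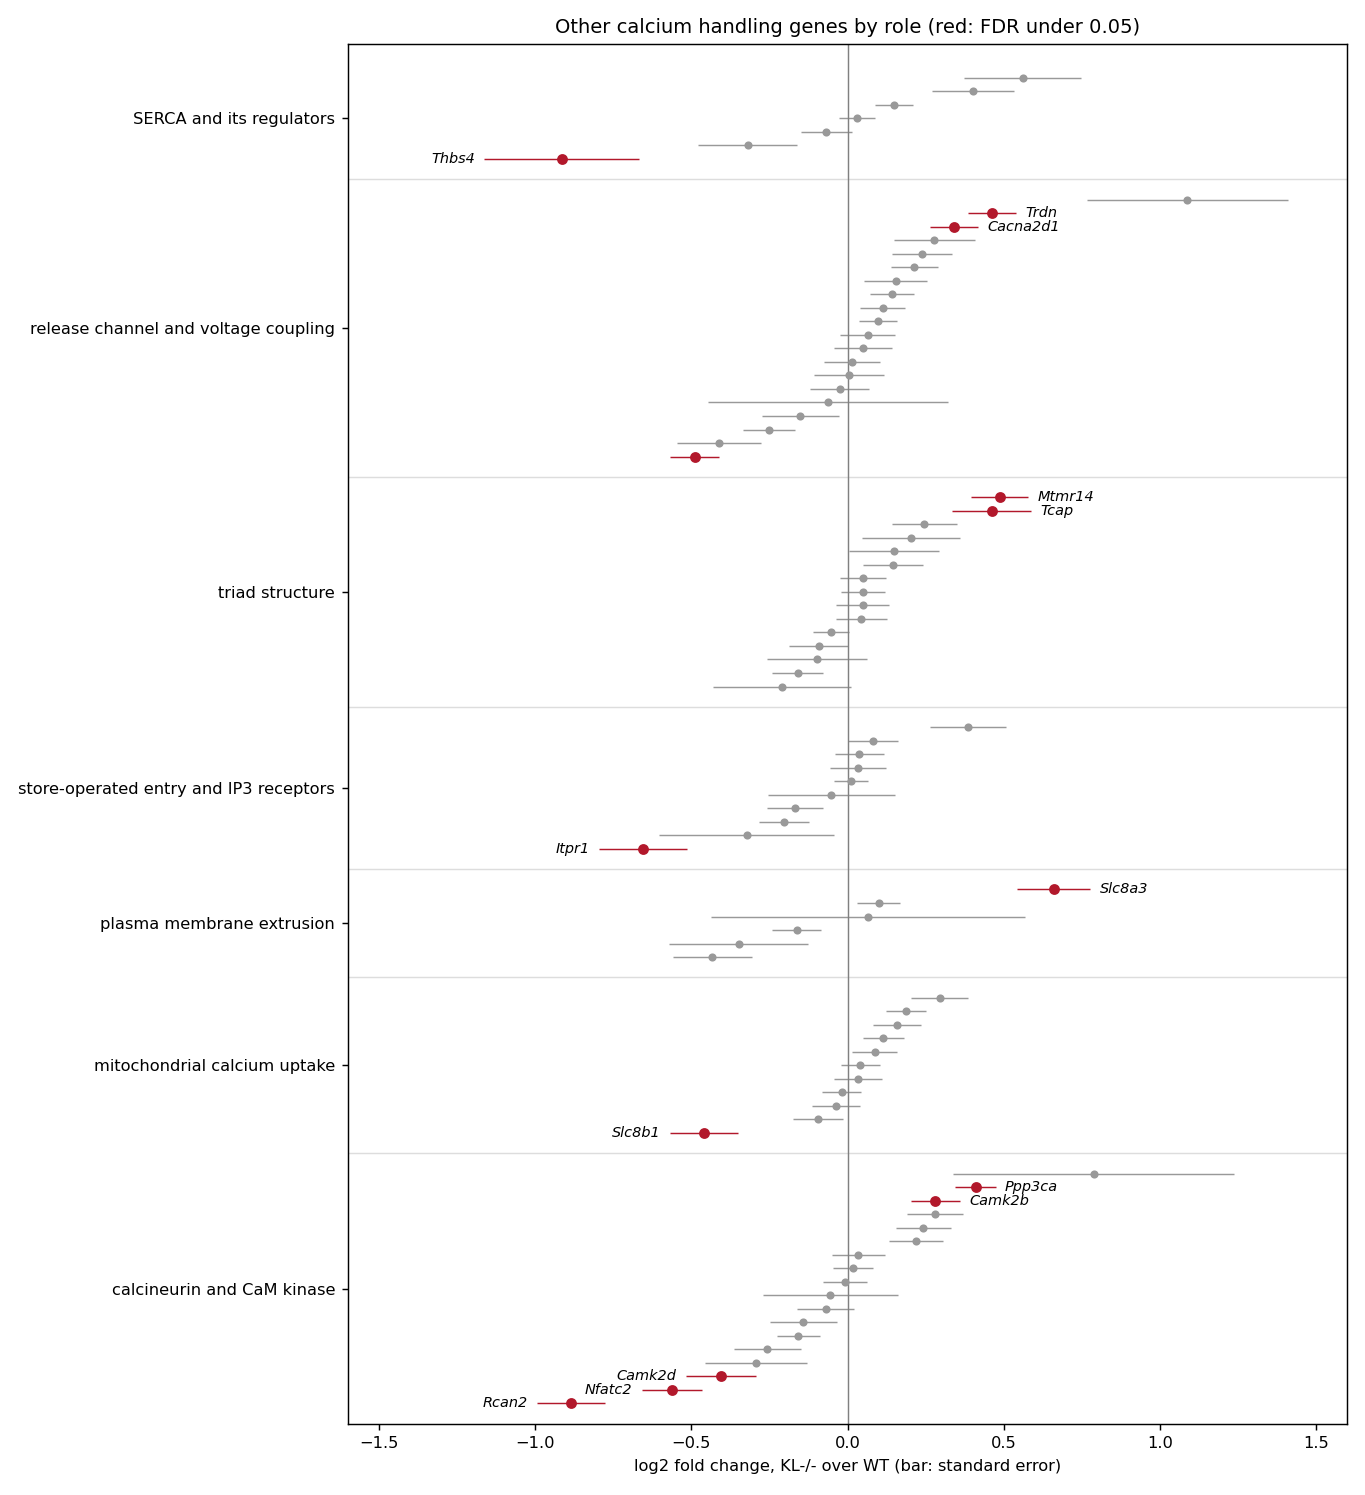
Log2 fold change of KL-/- over WT with its standard error for the 87 other Ca2+ handling genes, 1 row per gene, grouped by role and sorted within it, with red for the 14 genes at an FDR under 0.05 and names for those described in the text. Calls lie on both sides of zero, from *Thbs4* at −0.92 and *Rcan2* at −0.88 to *Slc8a3* at 0.66, and most genes lie within 0.5 of zero.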

How the data were processed

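RNA-seq libraries of TA muscle, 4 WT and 4 KL-/-, were analysed as deposited counts per gene, which are whole numbers without normalization. The authors checked reads with FastQC, used STAR to align them to mm10, dropped alignments of low quality and counted genes with featureCounts. The annotation version and the strand setting are not given in the sources used here, so reads of overlapping opposite-strand genes cannot be told apart, which concerns exons of *Atp2a1*, *Atp2a2*, *Casq1*, *Ryr1* and *Jph1*. The labels name total RNA and the study's methods mRNA sequencing. Library totals were 20860262 to 29273758 counts, and the standard errors given include the spread between mice as well as counting error.

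Counts were compared in R 4.3.3 with edgeR 4.0.16 (glmQLFit with legacy off, glmQLFTest, TMM factors, Benjamini-Hochberg adjustment over all 12551 genes, genotype as the only term). The default filter on low counts removed no gene. Standard errors come from the test statistic. Alternatives were DESeq2 1.42.0, other size factors, library totals, the likelihood ratio test, a minimum of 10 counts in every library, a replicate block and each library left out, and, chosen after seeing the data, the edgeR version 3 method. Scripts were checked on simulated data. No libraries were duplicates, as the chi-square per gene between libraries of a genotype was at least 9.91.

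The members and gene lists were chosen with earlier results of these data known. Named were all members, every other Ca2+ handling gene with an FDR under 0.05, the 2 most abundant of each role, the 5 genes nearest to *Sln* and markers beside a result, except for some genes that are not reported here. The fibre type, smooth muscle, cardiac, macrophage, endothelial, fibroblast and Schwann cell marker lists were read in the same fit. Sequences were read from GENCODE M21 transcripts and RefSeq promoters. Nothing says that the mice of a genotype came from separate litters, so p-values measure the spread between these mice.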

Additional observations from a re-analysis of the deposited data

How the results depend on the processing

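The sign of the log2 fold change of *Sln*, *Atp2a1*, *Ryr1* and *Jph1* (positive) and of *Atp2a2* and *Stac3* (negative) held under every alternative that gave a value, and none of the 14 called Ca2+ handling genes outside the 10 reversed. With library totals, 492 genes were higher and 2127 lower, and 4 and 16 of the Ca2+ handling genes outside the 10. DESeq2 called 24 of these, 14 of them higher, and 4 of the 10 members (*Sln*, *Ryr1*, *Atp2a1*, *Jph1*). With a minimum of 10 counts in every library *Sln* could not be tested and 1 member, *Ryr1*, was called. The *Atp2a2* share of SERCA fell by 0.0587 percentage points from raw counts. The correlations of same-numbered deviations were −0.146, 0.181, −0.368 and 0.017, which showed no common pairing by replicate number. With 4 mice per genotype they cannot exclude a pairing. With the number as a replicate block, 671 genes were called (348 higher, 323 lower), 9 Ca2+ handling genes outside the 10 (4 higher) and 1 member, *Sln*. Leaving out 1 library at a time gave 762 genes (without KL-/- replicate 3) to 2755 (without KL-/- replicate 2), 404 to 1521 of them higher and 343 to 1234 lower. It gave 8 to 26 Ca2+ handling genes outside the 10, 4 to 15 higher and 4 to 11 lower, and 1 to 3 members. The KL-/- minus WT share stayed between −0.0416 and −0.0286 points for *Atp2a2*, 0.148 and 0.641 for *Casq2* and −3.55 and −2.46 for *Jph2*. The cause of these shifts was not tested. Of the members, *Sln* had the fewest counts, 8 to 19 per WT library, and how far depth limits its value was not tested.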

Other observations

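Markers of other cells in the same libraries gave these values, whose part in the Ca2+ handling results was not tested. Schwann cell markers rose in 3 of 5 genes, among them *Mbp* (0.62 ± 0.15, FDR = 0.0251) and *Sox10* (0.95 ± 0.18, FDR = 0.0125), as log2 fold changes ± standard error of KL-/- over WT with edgeR's quasi-likelihood test. Their sum was 31.2 to 56.7 CPM in WT and 63.1 to 81.4 CPM in KL-/- libraries. Of 5 smooth muscle markers 1 rose, *Tagln* (0.52 ± 0.14, FDR = 0.0394). Of 5 endothelial markers 1 fell, *Kdr* (−0.90 ± 0.15, FDR = 0.00781), and of 6 macrophage markers 1 fell, *Adgre1* (−1.52 ± 0.40, FDR = 0.0365). The 2 genes nearest to the threshold among Ca2+ handling genes outside the 10, named after their values were seen, were *Atp2b4*, a plasma membrane Ca2+ pump gene (−0.43 ± 0.13, FDR = 0.0504), and *Ryr3*, a ryanodine receptor gene (1.09 ± 0.32, FDR = 0.0513).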
